A study of Mus musculus with 6 samples.

Results

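The EGFR family is described here as 10 genes chosen by name: the ligands Areg, Ereg, Hbegf, Btc, Egf and Tgfa, the receptors Egfr, Erbb2 and Erbb3, and Lrig1, a transmembrane inhibitor of these receptors. The ligands are made as precursors in the cell membrane, are cut free by metalloproteases and bind receptors on the same or nearby cells. Bound receptors pair with each other, phosphorylate their own tails and start ERK and PI3K signalling, which in turn raises the transcription of genes that damp the signal. In the intestinal epithelium these signals are known for driving crypt cell division and repair after injury.

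Of the 10 genes, 9 were measured by probe sets that carry their symbol and no other, of 18193 genes with such a probe set on the array. They were 5 ligands, 3 receptors and Lrig1, covered by 22 of the 45037 probe sets tested. No probe set was matched to Areg through the annotation used, and Areg was not analysed here.

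Expression was measured on 6 microarrays, 1 per mouse, with RNA from the colon. The 3 mutants carried loxP-flanked Hnf4α alleles and a Cre transgene under the 12.4 kb Villin promoter, which drives Cre in intestinal epithelium, so that Hnf4α, a nuclear receptor that activates epithelial genes, was targeted in those cells and not in the muscle or connective tissue of the wall. The 3 controls were littermates labelled wildtype. All 6 mice were 1 year old, were kept free of pathogens and were anaesthetised with ketamine and xylazine before the colon was taken, at its proximal end per the methods.

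Values are log2 RMA signals, on which 1 unit is a 2-fold difference, and differences are mutant minus control. A change was called at a Benjamini-Hochberg adjusted p under 0.05 in limma over all probe sets. Hnf4a itself had signals of 10.17, 10.09 and 10.15 in mutants, against 12.23, 12.01 and 11.97 in controls, and fell by 1.94 (SE 0.10, limma adjusted p = 0.000788). The labels give 1 mutant and all controls as female, but Xist lay between 5.03 and 5.32 in mutants and between 9.94 and 10.96 in controls, and the Y-linked gene Eif2s3y between 7.85 and 8.12 in mutants and between 2.75 and 3.16 in controls. By their RNA the 3 mutants were thus male and the 3 controls female, and genotype and sex cannot be told apart in any difference below. Y-linked genes also give a floor: 3 of them lay between 2.75 and 4.01 in the controls, where they have no template. Mutant 2 stood apart from the other arrays in the colon wall. Its smooth muscle markers had a median 3.84 below the mean of the controls, against 0.28 and 0.42 below it in the other mutants, and its fibroblast and matrix markers a median 3.28 below, against 0.18 and 0.56 below. Gut epithelium markers had medians of -0.03, 0.19 and 0.18 in mutants and between -0.05 and 0.06 in controls.

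The promoter windows of Btc, the member that was called, and of Egfr, in which a motif of the deleted factor was found, are shown first. They are RefSeq sequences of build GRCm38.p6, 300 bases that run mostly upstream of the annotated start, read 5′ to 3′ on the strand of the gene. Capitals mark a match to CAAAGNNCA, the core of the HNF4 motif, searched on both strands. Btc lies on the minus strand at chr5:91402945-91403244 and Egfr on the plus strand at chr11:16751953-16752252.
Btc: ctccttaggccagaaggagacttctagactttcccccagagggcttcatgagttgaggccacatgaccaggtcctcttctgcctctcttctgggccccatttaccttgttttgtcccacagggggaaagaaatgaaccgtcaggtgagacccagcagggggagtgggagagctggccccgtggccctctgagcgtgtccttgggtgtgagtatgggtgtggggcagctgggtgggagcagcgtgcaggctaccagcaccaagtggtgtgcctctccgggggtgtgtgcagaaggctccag
Egfr: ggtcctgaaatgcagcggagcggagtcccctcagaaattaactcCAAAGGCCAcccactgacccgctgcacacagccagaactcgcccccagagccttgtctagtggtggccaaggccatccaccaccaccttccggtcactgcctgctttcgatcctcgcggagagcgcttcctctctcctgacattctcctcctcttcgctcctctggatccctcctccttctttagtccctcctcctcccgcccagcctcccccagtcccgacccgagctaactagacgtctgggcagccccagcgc
Such windows were given for 7 of the 10 genes, 8 windows in all since Egf has 2. Only the Egfr window held the HNF4 core, which was found in 6.36% of the 32851 windows of all genes. TGANTCA, the motif of the AP-1 factors that ERK signalling induces, was found in none of the 8 windows and in 7.81% of all windows. A match is a run of letters and not a measured binding site.

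Among the ligands, Btc rose in the mutant colon. Btc encodes betacellulin, a ligand of both EGFR and ERBB4. Its signal was 6.26, 6.26 and 6.32 in mutants, against 5.22, 4.73 and 5.09 in controls (probe set 1435541_at). All 3 mutants lay above all 3 controls, and on this probe set the mutants differed from each other by less than the controls did. The means were 6.28 ± 0.04 in mutants and 5.01 ± 0.26 in controls (SD, n = 3 each), a difference of 1.27 (SE 0.14, 95% interval 0.93 to 1.60, limma adjusted p = 0.0203), or 2.40-fold on the linear scale. The second Btc probe set, 1421161_at, gave 4.68, 4.69 and 4.46 in mutants, against 3.60, 3.58 and 3.69 in controls, and also rose, by 0.98 (SE 0.10, limma adjusted p = 0.0174). Its control values lay within the range of the Y-linked floor, so this difference may be understated. On this second probe set the mutants differed from each other by more than the controls did (SD 0.13 against 0.06). Leaving out 1 array kept the Btc difference between 1.12 and 1.37 but the adjusted p stayed under 0.05 only without control 2 (0.0224), and was otherwise 0.0639 without mutant 1, 0.0578 without mutant 2, 0.119 without mutant 3, 0.0735 without control 1 and 0.0711 without control 3. The second probe set likewise kept its call in 1 of these 6 fits. In whole tissue, a change in the number of cells that make Btc and a change in Btc RNA per cell cannot be told apart.

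Btc was the only called gene of the 9, where 0.879% of all 18193 genes were called in either direction and 0.484% rose. At an unadjusted p of 0.05 or less the family had 4 genes (Btc, Hbegf, Tgfa and Erbb3), where 16.2% of all genes had such a p. All 3 mutants lay above all controls for 2 genes, Btc and Hbegf, where this held for 14.5% of all genes, and below all controls for Erbb3 alone, where this held for 8.86%. The differences were positive for 5 and negative for 4 of the 9 genes, with a median of 0.12, against a median of 0.05 over all genes.

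**Figure D1:**
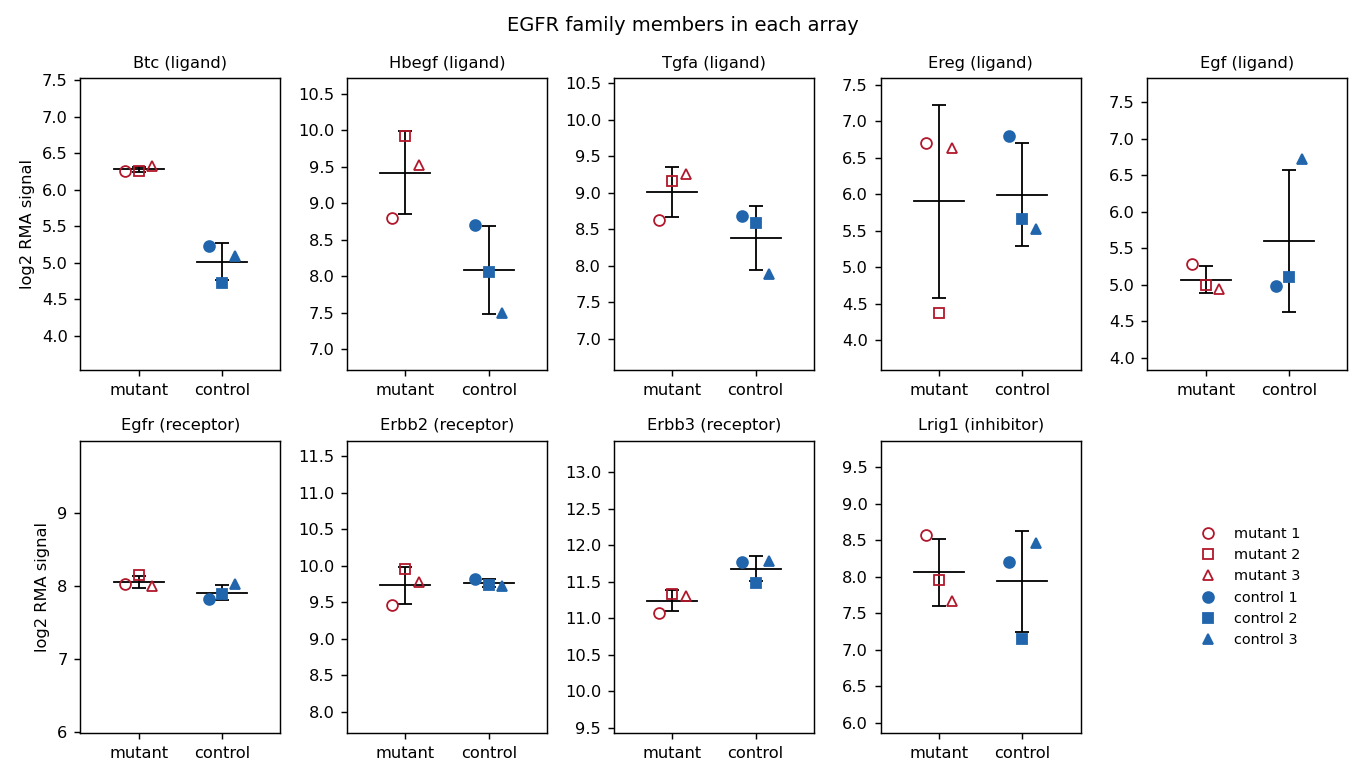
The log2 RMA signal of each of the 9 measured genes is plotted per array, with mutants to the left of controls, a horizontal line at the mean and bars of 1 SD (n = 3 each); every panel spans the same number of log2 units around its own level. Btc separates the groups most clearly, Hbegf separates them by a narrow gap, and Ereg has its lowest value in mutant 2.

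Hbegf had the largest difference of the 9 genes but was not called. It encodes the heparin-binding ligand of EGFR and ERBB4, a gene that injured epithelium induces early. Its signal was 8.80, 9.93 and 9.52 in mutants, against 8.70, 8.05 and 7.50 in controls (1418350_at). The mutants all lay above the controls, but mutant 1 was barely above control 1. The means were 9.42 ± 0.57 in mutants and 8.08 ± 0.60 in controls (SD, n = 3 each), and the difference of 1.34 had an interval of 0.45 to 2.22 (SE 0.37, limma adjusted p = 0.225). The second probe set gave a difference of 1.24 (SE 0.37, limma adjusted p = 0.248), with mutant 1 at 7.44 and control 1 at 7.45, so that the groups overlapped there.

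Tgfa, a ligand of EGFR that differentiated epithelium also makes, had 3 probe sets with positive differences and no call. The brightest gave 8.62, 9.16 and 9.25 in mutants, against 8.68, 8.58 and 7.88 in controls. Mutant 1 lay below control 1, so the groups overlapped, and the difference was 0.63 (SE 0.26, 95% interval 0.02 to 1.24, limma adjusted p = 0.373). It was 0.38 without control 3 and between 0.51 and 0.82 without any other array. The probe set 1421942_s_at gave 6.41, 6.50 and 6.32 in mutants, against 6.05, 5.95 and 6.03 in controls. These groups did not overlap, with a difference of 0.40 (SE 0.09, limma adjusted p = 0.157). The third gave 0.24 (SE 0.12, limma adjusted p = 0.462). Control 3 had the lowest signal of the 6 arrays for both Hbegf and the brightest Tgfa probe set.

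Ereg and Egf did not separate the groups. Ereg encodes epiregulin, which binds EGFR and ERBB4. Its signal was 6.70, 4.38 and 6.63 in mutants, against 6.80, 5.67 and 5.52 in controls. Mutant 2 was the lowest of all arrays and the other mutants lay just under the highest control. The means were 5.90 ± 1.32 in mutants and 5.998 ± 0.70 in controls (SD, n = 3 each), with a difference of -0.09 (SE 0.66, 95% interval -1.67 to 1.48, limma adjusted p = 0.962), which was 0.67 without mutant 2 (limma adjusted p = 0.680). Mutant 2 was also the array with few smooth muscle and fibroblast markers, with summed smooth muscle signals at 15.3, 11.8 and 15.2 in mutants and between 15.5 and 15.6 in controls on the log2 scale, and the part of this in the Ereg value was not tested. Egf, the founding ligand of the family, gave 5.28, 4.99 and 4.94 in mutants, against 4.98, 5.10 and 6.72 in controls. Control 3 alone was high, and the difference was -0.53 (SE 0.44, 95% interval -1.58 to 0.51, limma adjusted p = 0.626).

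Of the receptors, none was called. Egfr, a receptor that these ligands share, is read by 7 probe sets with differences of unequal size. All were positive with all 6 arrays, though those of 1454313_at and 1432647_at turned negative without some arrays (as low as -0.08). The brightest gave 8.03, 8.15 and 8.002 in mutants, against 7.82, 7.89 and 8.03 in controls. Control 3 lay among the mutants, and the difference was 0.15 (SE 0.10, 95% interval -0.09 to 0.39, limma adjusted p = 0.553). Another 3 probe sets had all mutants above all controls, and none of them was called. Over all genes, read by 1 probe set each, this separation held for 14.5%. The probe set 1424932_at gave 7.37, 7.67 and 7.56 in mutants, against 6.87, 6.95 and 6.80 in controls, a difference of 0.66 (SE 0.11, limma adjusted p = 0.0698). The probe set 1451530_at gave a difference of 0.79 (SE 0.16, limma adjusted p = 0.106) and 1435888_at gave 0.60 (SE 0.16, limma adjusted p = 0.200). The other 3 had differences between 0.05 and 0.16 and overlapped. Averaged over its 7 probe sets, Egfr differed by 0.36 (limma adjusted p = 0.272).

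Erbb2, which binds no ligand of its own and serves as a partner of the other receptors, was nearly level. It gave 9.46, 9.96 and 9.78 in mutants, against 9.82, 9.74 and 9.72 in controls. The mutants spread on both sides of the controls, and the difference was -0.03 (SE 0.14, 95% interval -0.36 to 0.30, limma adjusted p = 0.944). Erbb3, a receptor of neuregulins with little kinase activity, had values of 11.08, 11.33 and 11.31 in mutants, against 11.78, 11.48 and 11.78 in controls. All mutants lay below all controls, by a difference of -0.44 (SE 0.13, 95% interval -0.74 to -0.14) that did not pass the test (limma adjusted p = 0.239). The second Erbb3 probe set gave -0.15 (SE 0.24, limma adjusted p = 0.804) and overlapped.

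Lrig1, which promotes degradation of ERBB receptors and marks slowly dividing crypt cells, gave 8.57, 7.95 and 7.67 in mutants, against 8.20, 7.15 and 8.46 in controls. Values were intermixed, with a difference of 0.12 (SE 0.38, 95% interval -0.77 to 1.01, limma adjusted p = 0.905), and the other Lrig1 probe sets gave -0.02 and 0.01. For no gene of the family could an exact two-sided permutation test of 3 against 3 arrays go below p = 0.1.

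**Figure D2:**
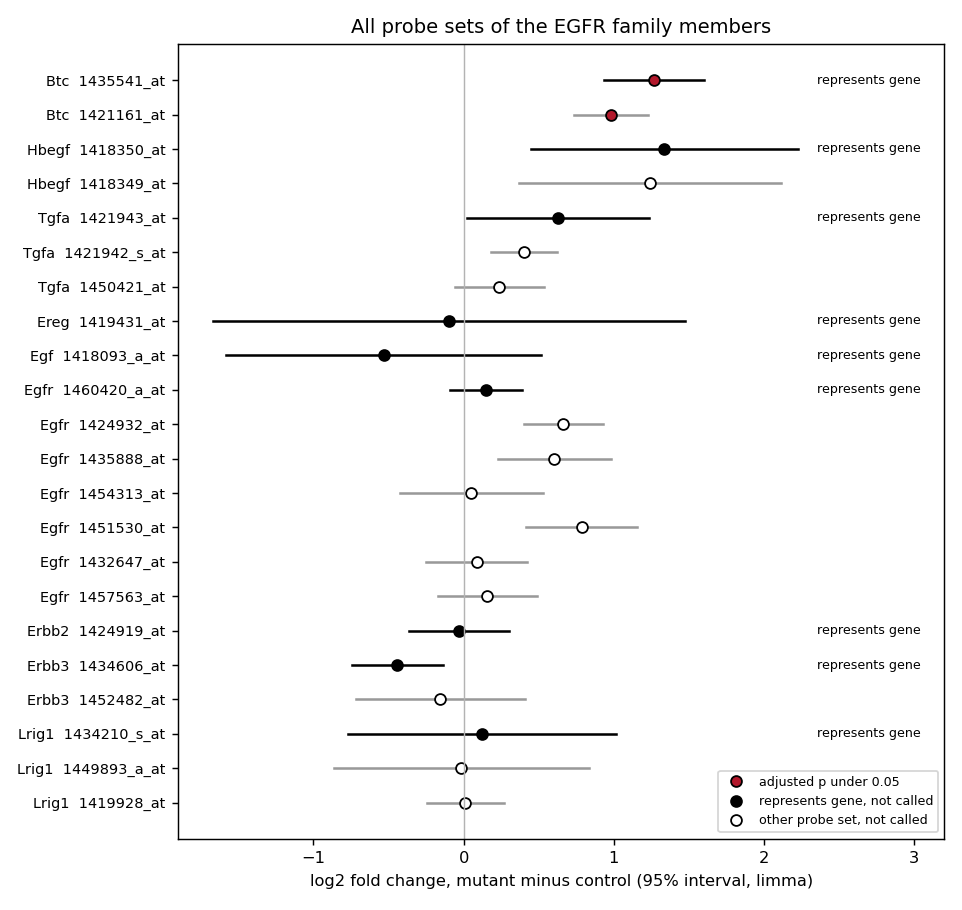
Each of the 22 probe sets of the family is plotted by its log2 fold change, mutant minus control, with its 95% limma interval; the probe set that represents each gene is marked. Both Btc probe sets passed an adjusted p of 0.05 and no other did, and the 7 Egfr probe sets ranged between 0.05 and 0.79.

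Btc, Areg, Ereg and the ligand gene Epgn lie next to each other on chromosome 5, in the order Epgn, Ereg, Areg, Btc. Of the genes in and beside this cluster, Btc alone was called. Epgn, which encodes epigen, a ligand of EGFR, had signals of 4.33, 4.82 and 4.82 in mutants, against 3.97, 4.41 and 4.23 in controls. Mutant 1 lay below control 2, and the difference was 0.46 (SE 0.18, limma adjusted p = 0.356). Parm1, the neighbour on the other side of Btc, gave 10.71, 10.95 and 11.07 in mutants, against 10.61, 10.38 and 10.30 in controls. These groups did not overlap, with a difference of 0.48 (SE 0.14, limma adjusted p = 0.227). Cxcl2, a neutrophil chemokine gene, gave 3.91, 3.36 and 3.22 in mutants, against 3.01, 2.91 and 3.03 in controls. The mutants were higher, by 0.51 (SE 0.18, limma adjusted p = 0.323), but all 6 values lay within the range of the Y-linked floor. Mthfd2l (0.15, SE 0.19, limma adjusted p = 0.757) and Rchy1 (0.03, SE 0.10, limma adjusted p = 0.916) overlapped between groups.

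**Figure D3:**
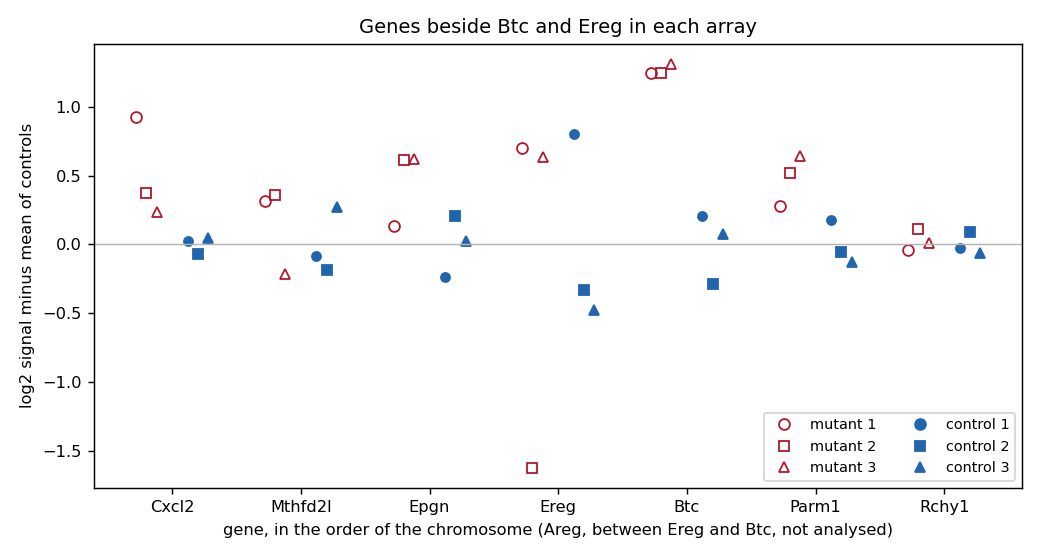
Log2 signal of each array minus the mean of the 3 controls, for the genes in and beside the Epgn, Ereg, Areg and Btc cluster in their order along chromosome 5, with mutants left of controls in each gene; distances are not to scale. Btc stands above its controls in all 3 mutants, while Ereg scatters in both groups.

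Genes around the family were read from 6 lists, of which 73 of 79 genes were measured. The other ERBB ligands had 5 genes and no call, with a median of 0.03; beside Epgn, the smallest p was that of Nrg2, which encodes a neuregulin (0.09, SE 0.18, limma adjusted p = 0.855). Erbb4, the fourth receptor, averaged 2.91 in mutants and 2.64 in controls, at the level of the Y-linked floor (difference 0.27, SE 0.15, limma adjusted p = 0.473). The 9 genes of ligand shedding had no call and a median of -0.01. Adam10, a metalloprotease that frees Btc and Egf, gave 10.42, 10.32 and 10.31 in mutants, against 10.003, 9.90 and 9.83 in controls. The mutants lay above all controls, with a difference of 0.44 (SE 0.09, limma adjusted p = 0.132). Adam9 differed by 0.42 (SE 0.18, limma adjusted p = 0.389).

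The 18 feedback inhibitors had no call and a median of 0.08, with 12 positive and 6 negative differences. Dusp6, an ERK phosphatase, gave 8.71, 8.29 and 8.11 in mutants, against 7.996, 7.42 and 7.39 in controls. All mutants lay above the controls, by 0.77 (SE 0.22, limma adjusted p = 0.230). Errfi1, an inhibitor that binds the EGFR kinase, gave 9.85, 10.27 and 9.92 in mutants, against 9.79, 9.37 and 9.04 in controls. The groups did not overlap, and the difference was 0.61 (SE 0.21, limma adjusted p = 0.306). The 19 measured genes of adaptors, ERK and PI3K signalling had no call and a median of -0.08. Gab2, an adaptor, differed by -0.88 (SE 0.24, limma adjusted p = 0.213) and Pik3cb, a PI3K catalytic subunit, by 0.44 (SE 0.13, limma adjusted p = 0.230).

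Of the 21 ERK target genes, 1 rose and none fell, where 0.484% of all genes rose. Differences were positive for 19 of them and for 60.4% of all genes, with a list median of 0.27 against 0.05 over all genes. All mutants lay above all controls for 8 of the 21, where this held for 14.5% of all genes. The list medians, as differences from the mean of the controls, were 0.09, 0.47 and 0.41 in mutants 1, 2 and 3. In controls 1, 2 and 3 they were 0.06, 0.06 and -0.06, so mutant 1 lay close to controls 1 and 2. Phlda1, an early response gene, was the one that rose, with 9.90, 9.63 and 9.40 in mutants, against 8.51, 8.49 and 7.998 in controls. All mutants lay well above the controls, by 1.31 (SE 0.19, limma adjusted p = 0.0448). This call was lost when any 1 of the 6 arrays was left out, with differences of 1.14 to 1.43 and adjusted p of 0.0563 to 0.161. Outside the naming rule, and chosen after their values were seen, Plaur (1.58, SE 0.25, limma adjusted p = 0.0605), Ier3 (1.28, SE 0.24, limma adjusted p = 0.0912) and Fosl1 (1.00, SE 0.20, limma adjusted p = 0.112) had the next smallest p of the list. Plaur passed the test without mutant 1 (1.81, limma adjusted p = 0.046) and without mutant 2 (1.30, limma adjusted p = 0.0482), but in none of the other 4 such fits. These 3 genes encode the urokinase receptor, an early response protein and an AP-1 subunit.

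**Figure D4:**
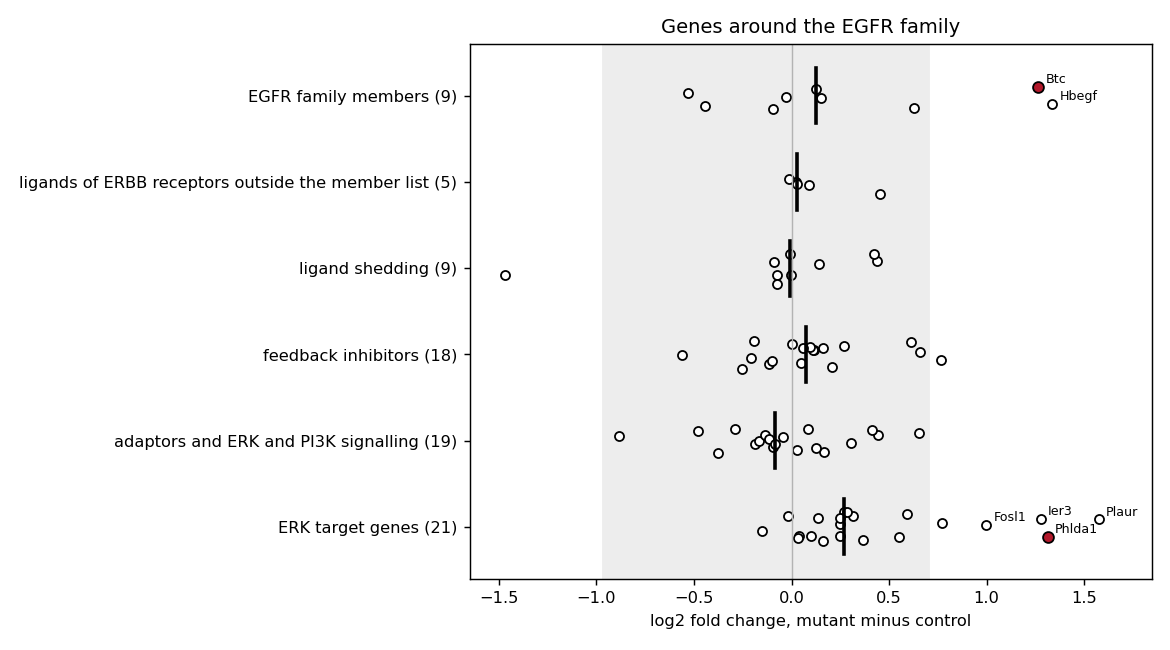
Each point is a gene, placed by its log2 fold change, mutant minus control, within the family or a list of genes around it (number measured in brackets); the upright bar is the median, filled points passed an adjusted p of 0.05 and the shaded band holds the middle 95% of all genes, between -0.964 and 0.703. Erbb4, alone in its list, is left out. Btc and Hbegf lie above the band, as do Phlda1, Plaur, Ier3, Fosl1, Junb (0.77) and Dusp6 (0.77). Junb was not called, and its signal in mutant 1 (9.09) lay below all controls (9.14 to 9.23). Timp3 (-1.47, not called) lies below it, mainly through mutant 2, with signals of 8.44, 5.63 and 8.30 in mutants 1, 2 and 3.

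The genes whose values were most like those of Btc over the 6 arrays, by the mean absolute difference of log2 values centred on the controls, were Myof (0.0947), Smox (0.101), Adgrg2 (0.130), 1700016K19Rik (0.151) and Prex1 (0.157). Myof encodes myoferlin, a membrane repair protein, and Smox encodes spermine oxidase. The genes like Btc, and those like Hbegf below, were picked by their values on these same 6 arrays. Differences close to those of Btc and Hbegf thus follow from the choice and are no separate result. The differences were 1.39 for Myof (limma adjusted p = 0.00795), 1.28 for Smox (0.0309), 1.13 for 1700016K19Rik (0.0192) and 1.26 for Prex1 (0.0135), all of which rose, and 1.37 for Adgrg2 (0.0538), which did not pass. Of the 6 fits that left out 1 array, 5 kept the call of Myof, 4 that of Prex1, 2 that of 1700016K19Rik and 1 that of Smox. Those most like Hbegf were Gspt2 (0.173), Cbr3 (0.174), Alas1 (0.186), Ppm1j (0.189) and Plet1os (0.220), of which none was called. Their limma adjusted p lay between 0.0515 for Plet1os and 0.272 for Cbr3.

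Markers of other cell types were read beside these values, and no marker gene of the 11 lists was called. The 12 smooth muscle and 12 fibroblast and matrix markers were all lower in mutants on average, mainly through mutant 2, in which Btc (6.26) was level with mutant 1 (6.26). The 11 measured squamous epithelium markers had summed log2 signals of 8.81, 8.90 and 8.86 in mutants and 8.70, 8.93 and 8.80 in controls, and the groups overlapped, as did 9 of the 11 genes. Krt13, a keratin of squamous epithelium, had 4.93, 5.13 and 5.01 in mutants, against 3.89, 4.40 and 3.89 in controls. The difference of 0.96 did not pass the test (SE 0.16, limma adjusted p = 0.0684), and controls 1 and 3 lay within the range of the Y-linked floor. Macrophage markers had negative differences for 7 of 10 genes, mainly through mutant 2. Their medians were -0.17, -1.7 and -0.09 in mutants 1, 2 and 3, against -0.19 to 0.25 in controls. All mutants lay above all controls for 3 of the 10, where this held for 14.5% of all genes. Among them were Cd68 (1.28, SE 0.31, limma adjusted p = 0.174) and Cd14 (0.56, SE 0.16, limma adjusted p = 0.236). For C1qc alone all mutants lay below all controls (-1.22, SE 0.66, limma adjusted p = 0.471). Of 8 enteric neuron and glia markers, 4 had all mutants below all controls, where this held for 8.86% of all genes. Among them were Prph (-1.15, SE 0.31, limma adjusted p = 0.207) and Uchl1 (-0.98, SE 0.28, limma adjusted p = 0.229). S100b, Sox10, Ret and Gfap overlapped between groups, with differences of -0.12 to 0.004. Krt13, Cd68, Cd14, C1qc, Prph and Uchl1 were chosen after their values were seen. Endothelium markers had medians of -0.22, -1.49 and -0.57 in mutants, all below the controls at -0.04 to 0.04, and B and plasma cell markers had medians of -0.99, -1.05 and -0.68 in mutants, against -0.58 to 0.41 in controls. Neutrophil markers had medians of 0.32, 0.14 and 0.18 in mutants and of -0.12 to 0.15 in controls. Their part in the differences of the EGFR family was not tested.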

How the data were processed

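RNA of 6 mouse colons was hybridised to Affymetrix whole-genome mouse arrays. The authors computed the deposited log2 signals with RMA in FlexArray, which corrects background, equalises the arrays and summarises probes, so array medians lay between 5.43 and 5.53. The number of arrays limits the precision. The family, gene lists and tests were chosen with earlier results of these data known. Without the 64 spike and quality controls of the array, limma was fitted to 45037 probe sets (version 3.58.1, R 4.3.3, no covariates) and p-values were adjusted by Benjamini-Hochberg over all of them. Symbols came from the platform annotation, which can be old: 34945 probe sets had 1 symbol, 932 had several and 9160 had none. The probe set with the highest mean over the 6 arrays represented each gene. Of each list every called gene is named, or the 2 genes with the smallest p. Alternatives were leaving out each array, the replicate number as a block, an intensity trend, array weights, renormalization, a filter on dim probe sets, other probe sets, and the study's thresholds of an unadjusted p of 0.05 with a ratio of 2. The fit was tested on simulated data. Each array held the RNA of a separate mouse. Probe sets whose name ends in s_at can also detect related transcripts. Figures were drawn with matplotlib 3.10.9.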

Additional observations from a re-analysis of the deposited data

How the results depend on the processing

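Btc kept its direction under all alternatives run, with differences of 1.12 to 1.37 for the probe set that represents it and of 0.92 to 1.06 for the other. The first lost its call in 5 of the 6 fits without 1 array and with the replicate number as a block (adjusted p = 0.0664). The count of called family genes was 1 in the reported fit, 0 to 1 without 1 array, 0 with the block, and 2 (Btc and Hbegf) at an unadjusted p of 0.05 with a ratio of 2. Over all probe sets, 239 were called, against 39 to 336 without 1 array, 62 with the block, 599 with array weights and 679 at the unadjusted p and ratio. Whether replicate numbers pair the mice is not known. Deviations of same-numbered arrays correlated at -0.02, 0.25 and -0.15, within the range of other pairs (-0.292 to 0.381). With 3 arrays a group these correlations cannot settle it. Of the genes around the family, 1 was called, against 0 to 1 without 1 array (Plaur in place of Phlda1 without mutant 1 or mutant 2), 0 with the block, 2 with an intensity trend, 2 with a filter on dim probe sets and 3 with array weights. Hbegf stayed uncalled in limma, with differences of 1.04 to 1.64, and of 0.97 to 1.57 for its other probe set. Among the probe sets that represent a gene, uncalled differences that changed sign were those of Erbb2 (-0.14 to 0.11 without 1 array, 0.0038 with arrays centred on their medians), Lrig1 (-0.27 to 0.39 without 1 array, -0.19 with array weights, -0.015 with another probe set), Ereg (-0.49 to 0.67 without 1 array, 0.25 with array weights) and Egf (-0.84 to 0.026 without 1 array). Among the other probe sets, 1449893_a_at and 1419928_at of Lrig1, 1454313_at and 1432647_at of Egfr and 1452482_at of Erbb3 changed sign without some arrays. The causes were not tested. With 3 arrays a group and sex tied to genotype, small differences of the receptors cannot be resolved here, and signals under about 4 lie near the floor.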
